A study of Mus musculus with 4 samples.

Results

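The Ly49 receptors are encoded by the Klra genes, and 10 of these genes (Klra1, Klra3, Klra4, Klra5, Klra6, Klra7, Klra8, Klra9, Klra10 and Klra16) were followed across 4 subsets of CD8 T cells. Members were found by matching the RefSeq accession of each array probe to a gene symbol. This gave 13 probes for 9 of the 10 genes, out of 56605 probes for any target and 22909 genes named in this way. Klra3 (Ly49C) had no matched probe and was not analysed here. The family was picked from earlier values of these arrays, in which Klra4, Klra7 and Klra16 differed widely between subsets, so its values are a description.

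The mice, aged 1 to 3 months and given no treatment, were PD-1-/- on a C57BL/6 background, and the cells came from spleen and lymph node by flow sorting. The subset the study set out to characterise, P4, was CD44low CD62Llow. The effector memory phenotype, CD44high CD62Llow, made up P3. P2 held the central memory phenotype, CD44high CD62Lhigh, and P1 the naive phenotype, CD44low CD62Lhigh. All 4 groups carried the PD-1 deletion, and no wild-type cells were analysed here. Each subset was measured on 1 single-colour array, so there is no replicate check and no test between subsets. The number of mice behind each sort was not given in the sources used here.

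Ly49 receptors are dimeric C-type lectin-like proteins of the natural killer (NK) cell surface that bind MHC class I molecules or viral mimics of them. Inhibitory members carry a tyrosine motif (ITIM) that recruits the phosphatases SHP-1 and SHP-2. Activating members lack it and signal through the adaptor DAP12. Part of the memory phenotype CD8 T cells of the mouse also carries inhibitory Ly49 receptors, as do CD8 T cells with reported regulatory activity, and naive CD8 T cells largely lack them.

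The genes lie side by side on chromosome 6. In the RefSeq gene table of assembly GRCm38.p6 the order was Klra17, Klra5, Klra6, Klra4, Klra8, Klra9, Klra7, Klra10, Klra3, Klra1 and Klra2, with 3 Klra pseudogenes between them. Klra16 (Ly49P), known from other mouse strains, was listed apart from this C57BL/6J cluster. How alike the genes are is shown by their RefSeq promoter windows, each 300 bases long, with 250 bases before and 50 after the listed start. Such windows existed for 9 of the 10 genes, Klra16 being the exception. In 7 of them (Klra3, Klra4, Klra5, Klra6, Klra7, Klra8 and Klra9) the same pair of stretches, GCANTTTCC and GAGGNGCANAAAA, was found. The stretches are printed in capitals within windows of 70 bases, all on the minus strand of GRCm38.p6 and read 5′ to 3′. Klra17 (Ly49Q), which is no member, is added because it holds them too.
Klra7, chr6:130233346-130233415: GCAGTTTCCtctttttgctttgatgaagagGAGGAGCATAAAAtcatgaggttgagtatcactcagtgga
Klra4, chr6:130067285-130067354: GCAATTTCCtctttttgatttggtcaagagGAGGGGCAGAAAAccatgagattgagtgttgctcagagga
Klra8, chr6:130129913-130129982: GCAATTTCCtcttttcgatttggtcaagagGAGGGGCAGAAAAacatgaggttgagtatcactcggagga
Klra9, chr6:130193085-130193154: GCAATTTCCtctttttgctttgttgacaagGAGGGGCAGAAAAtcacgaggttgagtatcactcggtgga
Klra5, chr6:129913249-129913318: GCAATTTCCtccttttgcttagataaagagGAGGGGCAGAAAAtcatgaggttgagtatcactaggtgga
Klra6, chr6:130027008-130027077: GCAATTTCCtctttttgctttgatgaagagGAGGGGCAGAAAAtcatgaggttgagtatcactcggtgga
Klra3, chr6:130337580-130337649: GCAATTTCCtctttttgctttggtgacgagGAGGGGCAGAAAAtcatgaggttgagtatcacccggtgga
Klra17, chr6:129876681-129876750: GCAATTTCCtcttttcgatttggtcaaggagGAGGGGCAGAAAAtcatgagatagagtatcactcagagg

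Between the 7 member genes these windows were 81.4% to 95.7% identical, with Klra3 and Klra6 the closest pair. Both stretches were read off these windows and then searched on both strands in 32851 promoter windows of the table. GCANTTTCC occurred in 444 windows (1.35%) and GAGGNGCANAAAA in 18 (0.0548%). The printed windows began at positions from -123 (Klra6) to -23 (Klra3) relative to the listed start, so the listed starts of these genes are not at one place of the shared sequence. Klra1 and Klra10 held neither stretch, and their whole windows are printed in lower case for comparison.
Klra1, chr6:130386825-130387124: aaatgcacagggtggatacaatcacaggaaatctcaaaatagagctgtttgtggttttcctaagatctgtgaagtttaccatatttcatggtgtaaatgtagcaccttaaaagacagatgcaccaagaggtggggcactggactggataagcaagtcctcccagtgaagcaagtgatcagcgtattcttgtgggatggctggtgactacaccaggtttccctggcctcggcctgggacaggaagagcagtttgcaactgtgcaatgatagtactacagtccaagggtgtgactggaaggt
Klra10, chr6:130281879-130282178: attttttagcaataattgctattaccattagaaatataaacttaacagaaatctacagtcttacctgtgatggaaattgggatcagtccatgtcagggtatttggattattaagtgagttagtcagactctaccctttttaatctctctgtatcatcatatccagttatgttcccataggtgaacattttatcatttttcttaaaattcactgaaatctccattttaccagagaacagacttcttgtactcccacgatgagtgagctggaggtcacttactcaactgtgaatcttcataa

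Other motifs were again searched on both strands. TATAAA was found in windows of 7 of the 9 genes (Klra3, Klra5, Klra6, Klra7, Klra8, Klra9 and Klra10), as many as held the shared stretches, against 13.6% of all windows. CTTTGA, a core of TCF and LEF factor sites, was found in the windows of Klra6 and Klra7, against 16% of all windows. TGTGGT, a Runx core (16.8% of all windows), and GGTGTGA, a T-box core (3.98% of all windows), were found among members in the Klra1 window alone. These matches describe letters in the listed windows and not sites of binding. The probe sequences themselves were not used here, so which of several near-identical transcripts a Ly49 probe reads was not tested.

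A level is the log2 processed signal of a probe minus that of the 75th percentile of its array, so that 0 is the 75th percentile. That percentile was 453 in P4, 799 in P3, 480 in P2 and 481 in P1, and between 27825 and 30804 probes were well above background. All 7 markers of CD8 T cells matched on the array (Cd3d, Cd3e, Cd3g, Cd8a, Cd8b1, Cd2 and Cd5) were well above background in every subset, and none was 2-fold apart in any pair. The P3 array stood apart. Its 10 markers of class II dendritic cells summed to 220 times the 75th percentile, against 7.71 in P4, 7.08 in P2 and 1.98 in P1, and P3 was the only array with all 10 markers of cross-presenting dendritic cells well above background. What part those transcripts have in the P3 values was not tested. Differences between P4, P2 and P1 hold no P3 value. The P3 array does enter the choice of a gene's probe, which goes by the mean over all 4 arrays. Repeated spots on an array put the 95% half-width of a log2 difference at 0.18 for levels of 0 or more, 0.29 for levels from -3 to 0 and 0.68 below -3. These cover spot noise only, not the spread between mice, sorts or labelling reactions.

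Apart from Klra1, Ly49 transcripts were highest in P2, next in P3, low in P4 and at or near background in P1. Of the 9 genes, 8 were well above background in P4, 9 in P3, 9 in P2 and 4 in P1. For the representing probes of 7 genes (Klra4, Klra5, Klra6, Klra7, Klra8, Klra9 and Klra16) the order from highest to lowest was P2, P3, P4 and P1, with each step beyond spot noise. Klra10 had the order P2 and P3, with P4 and P1 both below background. Klra1 alone had another order. The arrays read RNA of whole sorted populations, so fewer cells carrying a receptor and less RNA per cell cannot be told apart.

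**Figure D1:**
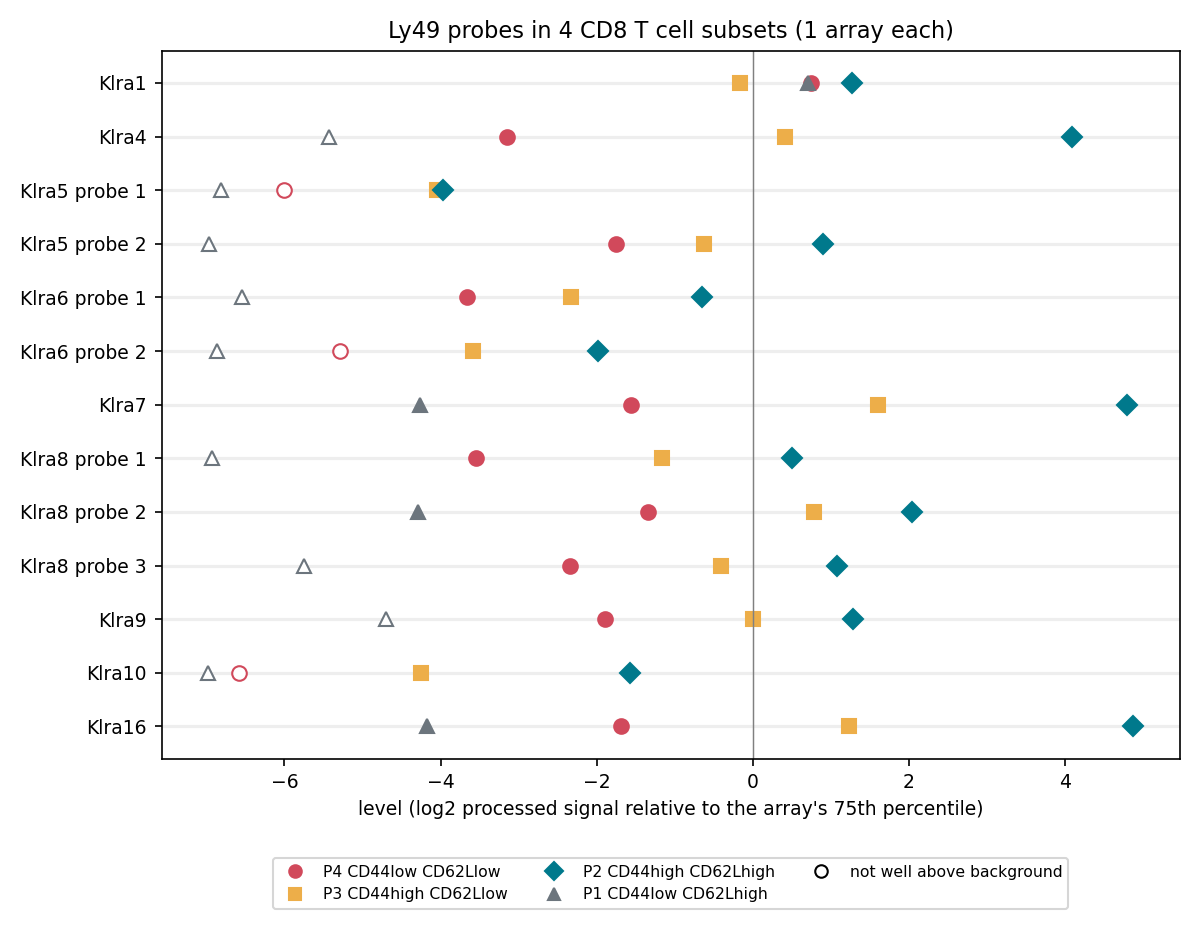
Level of each of the 13 Ly49 probes (log2 processed signal relative to the 75th percentile of its array, horizontal axis) in P4, P3, P2 and P1, 1 array each, with open symbols for spots not well above background. P2 lies furthest right on every line and P1 is at or near the left end on every line except Klra1, whose 4 subsets lie between -0.17 and 1.27.

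Klra7 encodes Ly49G, an inhibitory receptor. Its processed signal was 153 in P4, 2420 in P3, 13304 in P2 and 25.1 in P1, which gave levels of -1.56, 1.60, 4.79 and -4.26 in the same order. P2 was thus far above the others and P4 lay between P3 and P1. P4 was 8.95-fold lower than P3, 81.9-fold lower than P2 and 6.49-fold higher than P1. P2 was 532-fold higher than P1. That difference of 9.05 on the log2 scale was 7.12 under normexp background correction, and P4 minus P1 was 1.31 in place of 2.70.

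Klra16 encodes Ly49P, an activating receptor of other mouse strains. The probe for it had levels of -1.69 in P4, 1.23 in P3, 4.88 in P2 and -4.17 in P1. The order of the subsets and the steps between them were close to those of the Klra7 probe. The differences were -2.92 for P4 minus P3, -6.56 for P4 minus P2 (94.7-fold lower in P4) and 2.48 for P4 minus P1 (5.58-fold higher in P4). Since C57BL/6 mice are not known to carry Ly49P, whether its probe read a transcript of another Klra gene was not tested.

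Among the activating receptors, Klra4 encodes Ly49D, which binds the MHC class I molecule H-2Dd. Its signal was 51.3 in P4, 1063 in P3, 8171 in P2 and 11.2 in P1, where it was not well above background. On the log2 scale the levels were -3.14 in P4, 0.41 in P3, 4.09 in P2 and -5.43 in P1. P2 was far above the others, and P4 was the lowest of the 3 subsets with a measured level. Klra4 was 11.8-fold lower in P4 than in P3 and 150-fold lower in P4 than in P2. Against P1, it was at least 2.88-fold higher in P4, at least 33.8-fold higher in P3 and at least 433-fold higher in P2. Under normexp the P4 minus P1 difference was 0.75, below 2-fold.

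Klra8 encodes Ly49H, the activating receptor for the m157 protein of mouse cytomegalovirus. It was read by 3 probes, and the brightest had levels of -1.34 in P4, 0.79 in P3, 2.04 in P2 and -4.29 in P1. The P2 level was less far above the others than for Klra4 or Klra7. P4 was 4.36-fold lower than P3, 10.4-fold lower than P2 and 7.73-fold higher than P1. Its other probes differed by -4.04 and -3.41 for P4 minus P2, beside -3.38 for the brightest. All 3 probes gave the order P2, P3, P4 and P1 from high to low.

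Of the remaining inhibitory receptors, Klra9 encodes Ly49I. Its levels were -1.90 in P4, 0.00 in P3, 1.29 in P2 and -4.70 in P1, the last not well above background. P4 was again between P3 and P1. The P4 level was 3.73-fold lower than that of P3 and 9.10-fold lower than that of P2, and at least 6.83-fold higher than that of P1.

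Klra5 encodes Ly49E, the Ly49 receptor known from fetal NK cells. Its brighter probe had levels of -1.76 in P4, -0.62 in P3, 0.90 in P2 and -6.97 in P1, the last not well above background. P4 was 2.20-fold lower than P3, 6.31-fold lower than P2 and at least 7.53-fold higher than P1. A dimmer Klra5 probe was measured in P3 and P2 only, at -4.05 and -3.97, which differ by less than spot noise. The probes of Klra5 therefore disagree on whether P3 and P2 differ. With the mean over both probes, P3 minus P2 was -0.80 and P4 minus P1 was 0.79, and under normexp P4 minus P3 was -0.89, all below 2-fold.

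Klra6 encodes Ly49F. Its brighter probe had levels of -3.66 in P4, -2.32 in P3, -0.65 in P2 and -6.54 in P1, where it was not well above background. The steps down were smaller than for Klra4 or Klra7. P4 was 2.52-fold lower than P3, 8.05-fold lower than P2 and at least 2.02-fold higher than P1. The step between P4 and P1 was below 2-fold under quantile normalization (0.95), normexp (0.49) and the mean over probes (0.20). Under normexp P4 minus P3 was -0.46 and P3 minus P1 was 0.95. The dimmer probe had a P3 minus P2 difference of -1.61, beside -1.67 for the brighter one, which was -0.83 after subtraction of neighbouring spots.

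Klra10 encodes Ly49J and was measured on fewer arrays than any other member. It was not well above background in P4 (-6.58) or P1 (-6.98), and had levels of -4.25 in P3 and -1.58 in P2. It was thus measured in the CD44high subsets alone, with a P3 minus P2 difference of -2.67. In P4, Klra10 was at least 9.46-fold lower than in P2. The bound against P3 was at least 1.49-fold lower in P4, which is within spot noise.

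Klra1 encodes Ly49A, the first receptor of the family to be characterised, which binds H-2Dd and H-2Dk. It had levels of 0.74 in P4, -0.17 in P3, 1.27 in P2 and 0.71 in P1. It lay above the 75th percentile in P4, P2 and P1 and just below it in P3, so that P3 was the lowest subset. P4 minus P1 was 0.03, within spot noise, P4 minus P2 was -0.53 and P4 minus P3 was 0.91. After subtraction of neighbouring spots they were 0.36, -0.25 and 0.86, the first then larger than the spot noise half-width of 0.18. P3 minus P1 was then -0.37 in place of -0.88. The only pair of subsets 2-fold apart was P3 and P2, with P3 lower by 2.72-fold. That difference, -1.44 on the log2 scale, was -0.94 after subtraction of the spots around the probe, whose median itself differed by -0.51 between P3 and P2.

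Set against all genes of the arrays, the members were counted at a threshold of 2-fold in each pair, without a test. A gene entered a pair if it was well above background on at least 1 of the arrays. For P4 minus P2, 8 of 9 members were at least 2-fold lower in P4, where 3.43% of all 13125 genes were, and 0 were higher, where 4.85% of all genes were. The median difference was -3.24 over the members and 0.01 over all genes. Among 12119 genes well above background on both arrays, Klra4, Klra16 and Klra7 ranked 1, 2 and 3 from the lowest.

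For P4 minus P3, 7 of 9 members were at least 2-fold lower in P4, where 8.91% of all 13988 genes were, and 0 were higher, where 4.15% of all genes were. The members' median was -1.90, against 0.04 over all genes. For P4 minus P1 the direction was the other way. Of 8 members measured, 7 were at least 2-fold higher in P4, where 5.46% of all 13160 genes were, and 0 were lower, where 1.75% of all genes were. The medians were 2.59 over the members and -0.06 over all genes. Of these 8 differences 4 are bounds, which have no rank among the members. The count of 7 was 6 under quantile normalization and 5 each under normexp and with the mean over probes.

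P3 was lower than P2 in all 9 measured members at the 2-fold threshold, where 5.69% of all 14012 genes were lower in P3 and 10.5% higher. The count was 8 with the mean over probes, where Klra5 was not 2-fold apart, and 7 after subtraction of neighbouring spots, where Klra1 and Klra6 were not. Against P1, P3 was at least 2-fold higher in 7 of 9 members and lower in 0, where 12.4% of all 14088 genes were higher and 7.11% lower. P2 was at least 2-fold higher than P1 in 8 of 9 members and lower in 0, where 4.75% of all 12955 genes were higher and 2.53% lower. Klra1 was the exception there, at 0.57. The medians of the members were -1.67 for P3 minus P2, 4.67 for P3 minus P1 and 5.96 for P2 minus P1. These pairs share arrays and the counts are not independent of each other, and since the family was picked for such differences nothing is read from the counts.

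**Figure D2:**
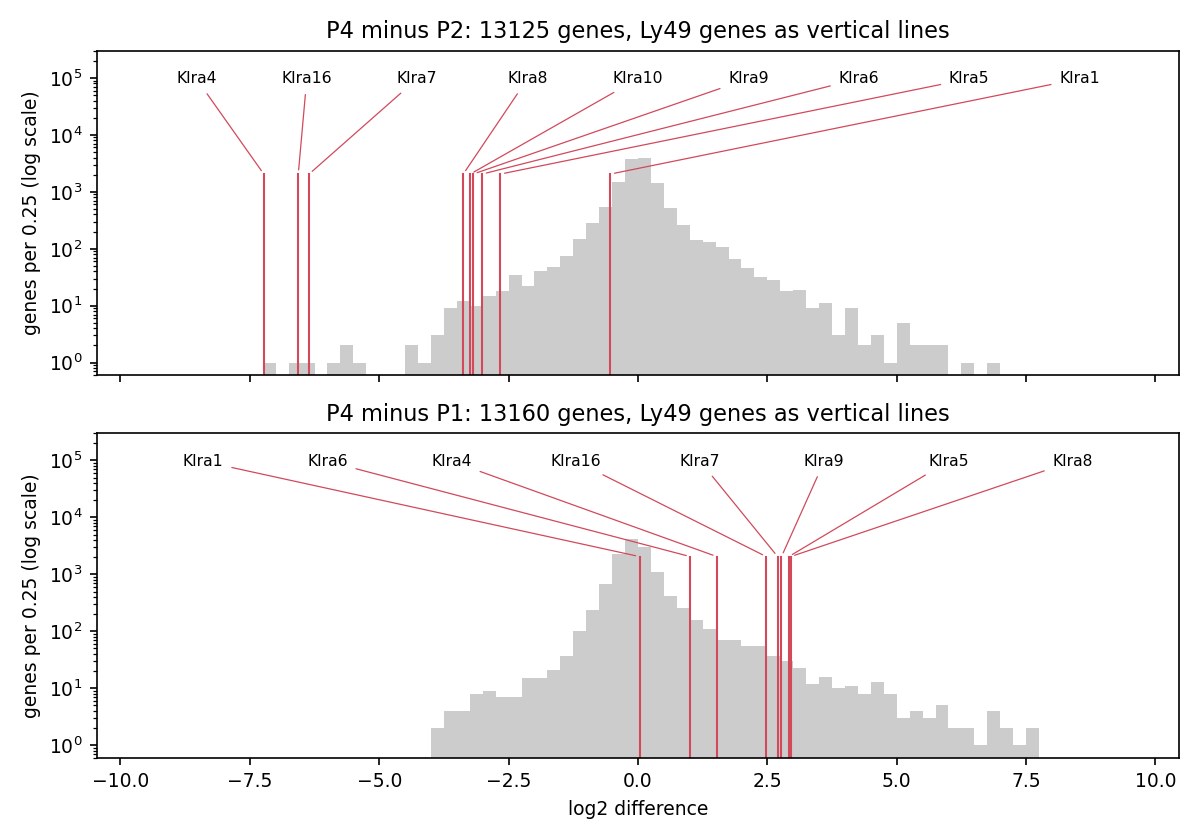
Histogram of log2 differences of all measured genes for P4 minus P2 (13125 genes, upper panel) and P4 minus P1 (13160 genes, lower panel), with genes per bin of 0.25 on a log axis. Vertical lines mark the Ly49 genes, of which 8 of 9 lie below -1 in the upper panel and 7 of 8 above 1 in the lower one.

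The members fell into unequal steps. As a share of the scaled P2 signal, the P4 signal was 0.666% for Klra4, 1.06% for Klra16 and 1.22% for Klra7. It was 9.63% for Klra8, 12.4% for Klra6 with Klra9 between these, 15.8% for Klra5 and 69.1% for Klra1. For Klra10 it was at most 10.6%. The other probes of Klra8 gave 6.08% and 9.39%, so how wide the step above Klra7 is depends on which probe stands for Klra8.

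The P3 signal as a share of P2 showed a similar division, but both shares are divided by the same P2 array. Klra4, Klra7 and Klra16, whose wide differences led to the choice of the family, had the highest P2 levels. The divisions are therefore not independent of each other. It was 7.82% for Klra4, 8.01% for Klra16, 10.9% for Klra7 and 15.7% for Klra10. The share was 31.3% for Klra6, 34.9% for Klra5, 36.8% for Klra1, 41.0% for Klra9 and 42.0% for Klra8. Klra4 and Klra7, an activating and an inhibitory receptor, thus lay in one range, and Klra8 and Klra9, also one of each kind, in the other. In the cluster, Klra4 stands between Klra6 and Klra8, and Klra7 beside Klra10, while Klra16 has no place there. Whether either division goes with place or with receptor kind was not tested.

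**Figure D3:**
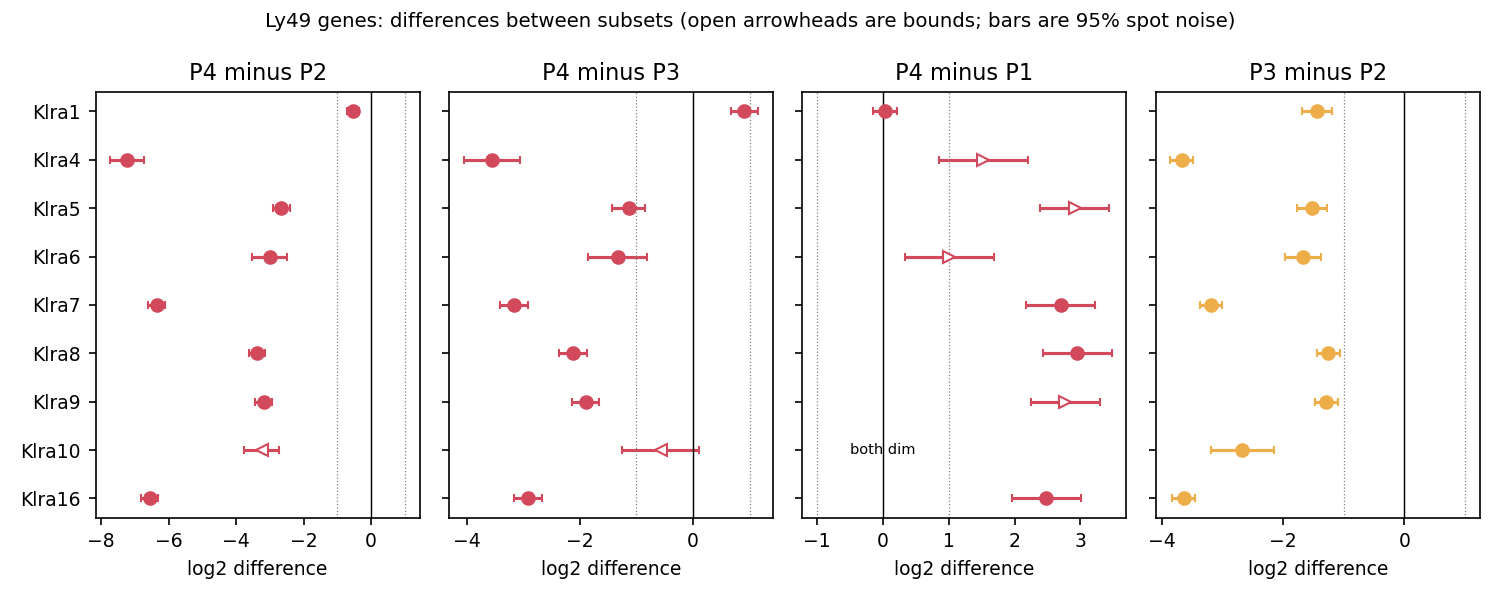
Log2 differences of the 9 Ly49 genes for P4 minus P2, P4 minus P3, P4 minus P1 and P3 minus P2, each panel with its own horizontal scale. Bars are the 95% half-width of spot noise, open arrowheads are bounds and dotted lines mark 2-fold. For P4 minus P2, Klra4, Klra7 and Klra16 lie between -7.23 and -6.36, Klra5, Klra6, Klra8 and Klra9 between -3.38 and -2.66, and Klra10 is a bound at -3.24.

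Among MHC class I genes, the classical H2-K1 and H2-D1 stayed within 2-fold, and which alleles the probes read was not tested. H2-K1, which encodes the heavy chain of H-2K, had levels of 8.37 in P4, 7.78 in P3, 8.36 in P2 and 8.41 in P1. H2-D1, which encodes that of H-2D, had levels of 7.67, 7.42, 7.47 and 7.58 in the same order. Of 11 measured genes of class I heavy chains, B2m and peptide loading, 0 were 2-fold apart in any pair of subsets. The median difference of the list was 0.25 at most (P4 minus P3) and -0.27 at least (P3 minus P1). The phosphatases SHP-1 (Ptpn6) and SHP-2 (Ptpn11), on which inhibitory Ly49 receptors act, were likewise not 2-fold apart. Ptpn6 had levels of 4.02 in P4, 3.86 in P3, 4.56 in P2 and 4.11 in P1. Of a list of 5 genes of inhibitory signalling, 0 passed 2-fold in any pair. Between 1.75% (lower in P4 than in P1) and 12.4% (higher in P3 than in P1) of all genes passed in 1 direction of a pair. With so few genes, nothing is read from either count of 0.

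The adaptor of the activating receptors followed another order than the receptors. Tyrobp, which encodes DAP12, had levels of -1.11 in P4, 3.35 in P3, -0.97 in P2 and -5.25 in P1, the last not well above background. P3 was the highest, P4 minus P2 was -0.15, within a spot noise half-width of 0.29, and P4 was at least 3.56 log2 units above P1. Klra4 and Klra8 thus differed between P4 and P2 by -7.23 and -3.38 while their adaptor did not differ beyond spot noise.

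Hcst, which encodes the adaptor DAP10, was high throughout, at 5.94 in P4, 6.11 in P3, 6.48 in P2 and 6.21 in P1. Fcer1g, a signalling chain of Fc receptors and of several NK cell receptors, had levels of 0.76 in P4, 1.99 in P3, 0.37 in P2 and -3.88 in P1. Syk, a kinase that binds phosphorylated ITAM motifs, had levels of -4.11 in P4, -0.01 in P3, -4.17 in P2 and -5.19 in P1, where it was not well above background. Tyrobp, Fcer1g and Syk were all highest in P3, and myeloid cells express all of these genes. P3 was also the array with the highest sums of class II and of cross-presenting dendritic cell markers. The part of such cells in these P3 values was not tested.

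Of 13 genes of ITAM adaptors and kinases, 0 were at least 2-fold higher and 4 lower in P4 minus P3, where 4.15% of all genes were higher and 8.91% lower. In P4 minus P2 the counts were 1 and 0, against 4.85% and 3.43% of all genes. In P4 minus P1 they were 4 and 0, against 5.46% and 1.75%. The 1 gene higher in P4 than in P2 was Lat2, an adaptor of myeloid and B cells, at 1.17. The T cell kinase gene Zap70 had levels of 6.42 in P4, 6.33 in P3, 6.32 in P2 and 6.17 in P1, all within 2-fold. Fyn, another kinase gene of the list, had levels of 2.31 in P4, 3.06 in P3, 2.16 in P2 and 1.88 in P1, and was more than 2-fold higher in P3 than in P1.

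Klrk1 and Klrg1, lectin receptor genes of the NK gene complex outside the family, were highest in P3. Klrk1 (NKG2D) had levels of -1.29 in P4, 2.89 in P3, 1.08 in P2 and -6.26 in P1, and Klrg1 had -0.42 in P4, 2.27 in P3, -4.61 in P2 and -6.77 in P1, with both P1 values and the P2 value of Klrg1 not well above background. Klrd1 (CD94, the partner chain of NKG2 receptors) stayed within 2-fold, at 4.58, 5.09, 5.31 and 5.00 in the order P4, P3, P2 and P1. Of 12 lectin receptor genes outside the family measured in P4 minus P2, 2 were higher in P4 by 2-fold or more and 4 lower, against 4.85% and 3.43% of all genes, with a median of -0.65. Of 15 measured in P3 minus P2, 4 were higher in P3 and 0 lower, against 10.5% and 5.69% of all genes, while all 9 Ly49 genes were lower in P3.

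**Figure D4:**
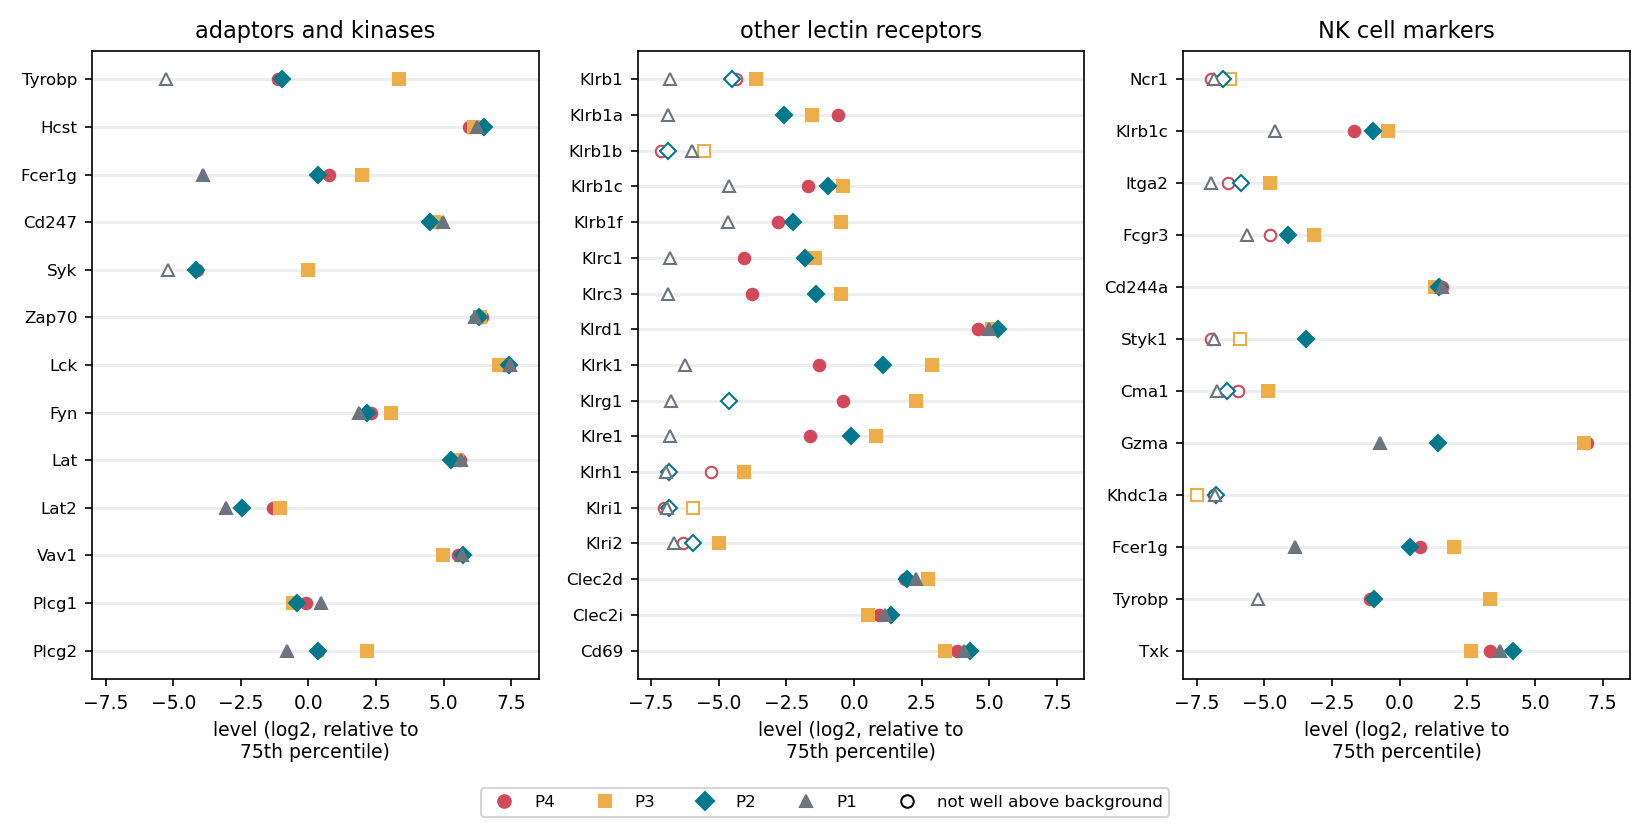
Levels (log2, with 0 at the 75th percentile of the array) of ITAM adaptors and kinases, of other lectin receptors and of NK cell markers in P4, P3, P2 and P1, 1 array each, with open symbols for spots not well above background. Tyrobp, Syk, Klrk1 and Klrg1 are highest in P3, and Ncr1 is not well above background in any subset.

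Markers of NK cells were looked at beside the receptors, since NK cells carry Ly49. Of 12 markers, 6 were well above background in P4, 9 in P3, 8 in P2 and 4 in P1. Their summed level was 136 times the 75th percentile in P4, 135 in P3, 25.9 in P2 and 16.7 in P1, most of it in P4 and P3 from Gzma, a granzyme gene that effector T cells also express. Without Gzma, which was singled out after its values were seen, the sum was 15.5 in P4, 23.8 in P3, 23.2 in P2 and 16.1 in P1. The highest level in that sum was Txk in P4 (3.33), P2 (4.17) and P1 (3.71), and Tyrobp in P3 (3.35). The sum rests on few genes and is not read as an amount of NK cells. Ncr1, which encodes NKp46 and defines NK cells, was not well above background in any subset, nor was Khdc1a. Itga2 (CD49b) was well above background in P3 alone, at -4.78, as was Cma1, at -4.88. Styk1 was well above background in P2 alone, at -3.45, and Fcgr3 in P3, at -3.16, and P2, at -4.13. Klrb1c (NK1.1) had levels of -1.70 in P4, -0.42 in P3, -0.98 in P2 and -4.61 in P1, the last not well above background. What part NK cells have in the Ly49 values was not tested.

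Markers of gamma delta and NKT cells summed to 3.44 times the 75th percentile in P4, 6.49 in P3, 20.7 in P2 and 0.622 in P1. The P2 sum was mostly Cd163l1, with a level of 4.34. Zbtb16, which encodes PLZF, the factor that defines NKT cells, was not well above background in P2. Of the 10 genes of that list, 6 were matched on the array and 3 were well above background in P2. What part such cells have in the Ly49 values was not tested.

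Inhibitory Ly49 receptors in CD8 T cells are known from virtual memory cells, which take on a memory phenotype without antigen contact, and a list of 14 genes linked to those cells was set beside them. In P4 minus P2, 7 of 14 were lower in P4 by 2-fold or more and 1 higher, against 3.43% and 4.85% of all genes, with a median of -1.11. The 7 include Cd44 (-3.50), the gene of a sort marker, so its direction is not independent of the sort. The 1 higher was Itga4 (1.55). The list was counted by direction alone, without regard to whether a gene is known as high or low in virtual memory cells. The largest difference was that of Gzmm, which encodes granzyme M, with levels of -0.70 in P4, 2.90 in P3, 4.76 in P2 and -0.91 in P1. Cxcr3, a chemokine receptor gene of memory and effector cells, had levels of 3.54 in P4, 5.49 in P3, 5.11 in P2 and 1.73 in P1. Eomes, a T-box factor, stayed within 2-fold between P4 (3.30), P3 (3.77) and P2 (3.62) and was 1.31 in P1.

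In a list of 11 genes linked to regulatory CD8 T cells, 6 were higher in P4 than in P2 by 2-fold or more and 1 lower, against 4.85% and 3.43% of all genes, with a median of 1.31. In P3 minus P2, 7 were higher and 0 lower (10.5% and 5.69% of all genes). In P4 minus P3, 0 were higher and 2 lower (4.15% and 8.91% of all genes). Ikzf2, which encodes the factor Helios, had levels of 1.65 in P4, 1.53 in P3 and 0.24 in P2, with a P4 minus P1 difference of 2.66. Il10 had levels of 0.03 in P4 and 0.01 in P3 and was not well above background in P2 (-5.37) or P1 (-6.84). The 1 gene lower in P4 than in P2 was Cxcr5, a follicle homing receptor, at -2.18. Of the Ly49 genes, 0 were 2-fold higher in P4 than in P2.

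Among 14 transcription factor genes linked to Ly49 or to NK and memory differentiation, Tcf7, whose product TCF-1 is known to bind Ly49 promoters, had levels of 3.77 in P4, 3.36 in P3, 4.13 in P2 and 4.31 in P1. Tbx21, which encodes T-bet, had levels of 2.45 in P4, 4.06 in P3, 3.75 in P2 and -0.37 in P1. In P4 minus P2, 3 of the 14 were higher in P4 by 2-fold or more and 2 lower, against 4.85% and 3.43% of all genes. The median of the list was 0.00, against -3.24 over the receptors.

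Likeness to the family was measured as the Euclidean distance between the 4 levels of a gene, centred on its own mean, and the mean centred pattern of the 9 members. That pattern was -0.99 in P4, 0.76 in P3, 3.03 in P2 and -2.80 in P1. Among 14357 genes, the 8 nearest outside the Klra family were Samd3 (distance 1.11), Dlg5 (1.13), Cd163l1 (1.31), Gpat3 (1.40), Gzmm (1.44), 5830411N06Rik (1.47), Ctla2b (1.56) and Ctla2a (1.56). Samd3 had levels of -1.30 in P4, 1.98 in P3, 3.18 in P2 and -2.38 in P1. This likeness describes 4 arrays.

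The members themselves lay at unequal distances from their mean pattern. Klra9 (distance 0.98) and Klra5 (1.04) were nearest, followed by Klra8 (1.17) and Klra6 (1.31). Klra10 (2.41), Klra16 (2.45), Klra7 (2.49) and Klra4 (2.58) were further off. Klra1 stood at 4.19, which was rank 2775.

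**Figure D5:**
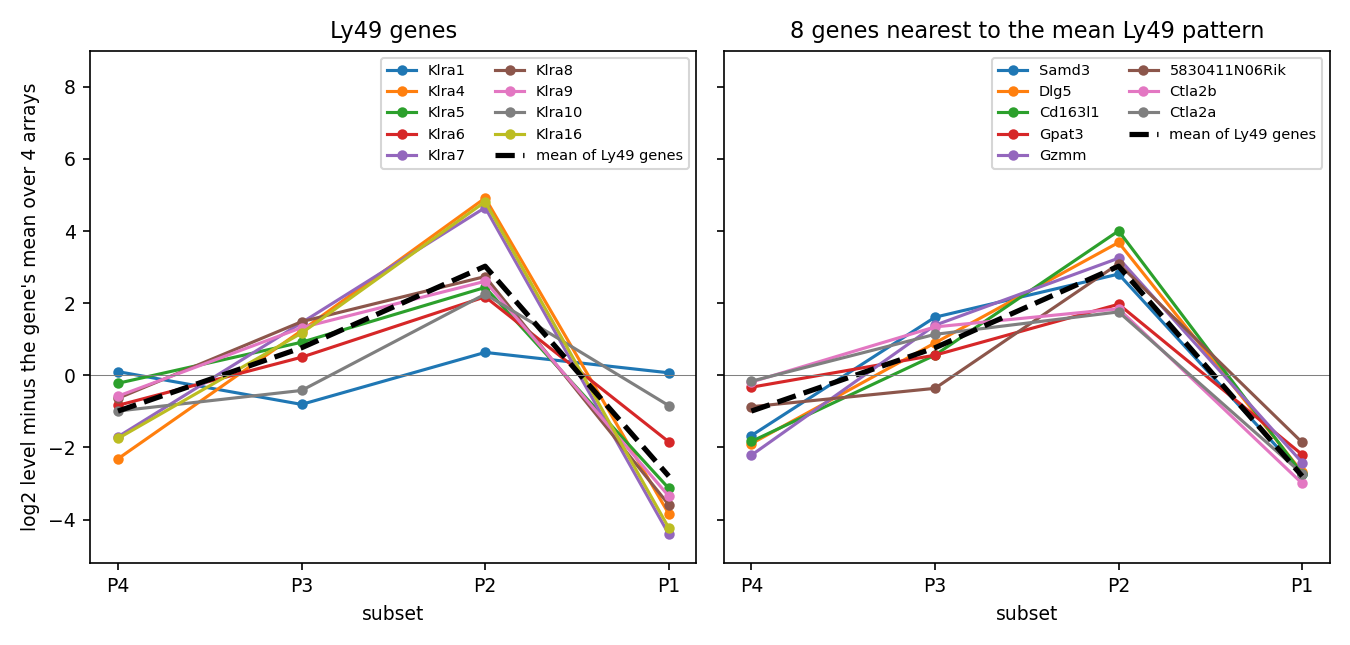
Levels centred on the mean of each gene over the 4 arrays (log2, vertical axis) for the 9 Ly49 genes (left) and for the 8 genes nearest to their mean pattern (right), by subset. The dashed line is the mean of the Ly49 genes, at -0.99 in P4, 0.76 in P3, 3.03 in P2 and -2.80 in P1, and the Klra1 line is the flattest.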

How the data were processed

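Total RNA of 4 sorted CD8 T cell subsets was measured on 1 single-colour (Cy3) Agilent array each, per the labels' protocols. The authors read the intensity of each spot in Agilent Feature Extraction 11.0.1.1, per the file headers and the submitters' processing notes. The processed signal is background-subtracted and detrended within an array. The authors' deposited table gives log2 values, with a median of 8.85 per array, for 26188 probes. Its sorted columns were alike and not centred, which quantile normalisation would give. The tool behind it was not given in the sources used here.

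Control spots and between 122 and 152 outlier spots were dropped from each array, and saturated spots numbered 0. The log2 of the deposited processed signal minus the 75th percentile of its array gave the level. Repeated spots were averaged, and the probe with the highest mean stood for its gene. Values not well above background were set to the lowest spot well above background on its array (levels of -4.82 in P4, -5.36 in P3, -4.58 in P2 and -4.67 in P1) where lower, which gives a bound. Symbols came from RefSeq accessions through a gene table of GRCm38.p6, used for names and gene order only. The array design is of another build. Promoter windows came from a RefSeq table of the same assembly.

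Genes differing by 2-fold or more were counted, since 1 array per subset allows no test, and the number of arrays limits the precision. The counting was tested on simulated data. Members, gene lists and tests were chosen with earlier results of these data known. The naming rule took all members, other Klra genes, genes of the lists and the 8 genes nearest in pattern. Alternatives were 2 other scalings, normexp on median signals (offset 50, since no mean signals were used here), other filters, the mean over probes, outlier spots kept, the authors' values, a 4-fold threshold and subtraction of neighbouring spots. Python 3.11.15, numpy 2.4.6, pandas 2.3.3, scipy 1.17.1, matplotlib 3.10.9, Biopython 1.88, R 4.3.3 and limma 3.58.1 were used.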

Additional observations from a re-analysis of the deposited data

Results flagged for a closer look

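Between CD62Llow and CD62Lhigh cells, 7 Ly49 genes differed in opposite directions in CD44low and in CD44high cells. Among CD44low cells they were higher in P4 (CD62Llow) than in P1 (CD62Lhigh), and among CD44high cells lower in P3 (CD62Llow) than in P2 (CD62Lhigh). P4 minus P1, less P3 minus P2, came to 6.12 for Klra16, 5.89 for Klra7 and 4.20 for Klra8 on the log2 scale. For genes not well above background in P1 the same quantity is a lower bound, of 5.20 for Klra4, 4.43 for Klra5, 4.06 for Klra9 and 2.69 for Klra6. P4 minus P1 fell below 2-fold for Klra6 under quantile normalization (0.95), normexp (0.49) and the mean over probes (0.20). It did so for Klra4 under normexp (0.75) and for Klra5 with the mean over probes (0.79). P3 minus P2 was -0.80 for Klra5 with the mean over probes and -0.83 for Klra6 after subtraction of neighbouring spots. The share of all genes that differ in this way is not given here. With 1 array per subset these differences were not tested.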

How the results depend on the processing

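All 46 differences of at least 2-fold between subsets kept their direction under quantile normalization, scaling to the median, normexp, no filter, the mean over probes, outlier spots kept and subtraction of neighbouring spots. Of these, 45 stayed at least 2-fold under quantile normalization, 41 under normexp, 43 with the mean over probes and 44 after subtraction of neighbouring spots, whose median differences lay between -0.84 and 0.59. The differences that fell below 2-fold are given beside their genes. Bounds printed as at least a given fold hold only for the processing that gave them. Under normexp, P4 minus P1 was 1.15 for Klra9, 1.64 for Klra5, 1.30 for Klra8 and 1.31 for Klra16. P4 minus P2 was then -1.67 for Klra10. Normexp moved 29 of 53 differences by more than 1.5 times, with a median shift of 0.77 and a largest of 2.21 on the log2 scale (Klra9, P2 minus P1). The largest shift was 2.44 with the mean over probes, 2.31 with no filter and 0.84 after subtraction of neighbouring spots. The authors' values cover 4 of the genes (Klra1, Klra7, Klra8 and Klra16), so counts drop by construction. In the authors' deposited table, at the 2-fold threshold, 3 genes were lower in P4 than in P3, 3 lower in P4 than in P2, 3 higher in P4 than in P1, 4 lower in P3 than in P2, 3 higher in P3 than in P1 and 3 higher in P2 than in P1. At a 4-fold threshold, 4 genes were lower in P4 than in P3 and 4 lower in P3 than in P2. With only genes above background on both arrays, 3 each were higher in P4, in P3 and in P2 than in P1, because fewer genes are measured. No paired analysis was possible because each subset has 1 array, and no array could be left out of a pair. Spots near background limit what can be said of Klra10, of dim second probes and of most genes in P1.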

Other observations

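The other Klra genes on the array behaved unlike the members. Klra17, which encodes Ly49Q, a receptor known from plasmacytoid dendritic cells, was well above background in P3 alone, at -0.18 and -2.41 by 2 probes. By its brighter probe, P4 was at least 24.9-fold lower than P3, and P3 was at least 21.2-fold higher than in P2 and at least 22.4-fold higher than in P1. Klra2, which encodes Ly49B, was well above background by 1 of 2 probes in P3 alone, at -4.58. Klra17 holds both sequence stretches shared by 7 member promoter windows, though it was not well above background in P4, P2 or P1. Dendritic cell markers were also highest in P3, and their part in these values was not tested.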
